A study of Acidomyces sp. 'richmondensis' with 12 samples.

Results

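The copper response of a fungal strain without ArAceA was measured in 6 of the study's 12 RNA-seq libraries: 3 of ∆ArAceA mycelium without copper and 3 of the same strain after 6 h in medium with 15 mM CuCl2. They were chosen by genotype and treatment label alone, and each library came from a separate culture. The other 6 libraries, 3 of the wild type (WT) without copper and 3 with it, serve here only to show where the deletion strain differs. All 4 groups are mycelia of Acidomyces richmondensis MEY-1, grown in liquid culture for some days, washed and moved to fresh medium, so the groups without copper carry the transfer as well. The sources used here do not say whether ∆ArAceA is 1 clone or several. The title of the study names CRISPR/Cas9 as its editing tool and copper resistance as its subject.

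Copper is a cofactor of respiration and of antioxidant enzymes, and in excess it generates reactive oxygen species and displaces iron from iron-sulfur clusters. Fungi meet an excess by exporting copper through P-type ATPases, by binding it in metallothioneins and by reducing its uptake. In Aspergillus fumigatus, AceA is the transcription factor that responds to high copper and activates the gene of a copper-exporting ATPase. ArAceA carries the name of that factor, and a strain without it shows which transcripts still respond to copper when the regulator is missing.

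The files list 10043 genes with FPKM values, which count sequenced fragments relative to transcript length and library size, and 8741 genes reached 1 FPKM in at least 3 of the 12 libraries and were tested. Each gene has a locus identifier and no name in the files, so neither the level of ArAceA nor that of any known copper gene was analysed here, and no function is given to a gene. Identifiers are printed for the 2 largest rises and the 2 largest falls. Ranks run over called genes whose groups do not overlap and whose higher group averages 5 FPKM or more, and other genes are described by their rank or as groups. Values are mean ± SD over 3 cultures where an error is given. A call is an adjusted p under 0.05 in limma, fitted to log2(FPKM + 1) values, and strong means a call with a fitted change of at least 2-fold.

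The 6 libraries were alike in scale. Their FPKM sums lay between 884111 and 890265, and replicates correlated at 0.9956 to 0.9961 across genes on the log2 scale, against 0.9746 to 0.9772 between a library with copper and one without. The depth in reads is unknown. Copper replicate 2 had the lowest median level, 15.66 FPKM against 16.03 and 16.32 FPKM in the other two, and held the lowest copper value in 47.5% of the genes tested. One WT library stood apart in the genes that matter here: WT replicate 2 gave 2.69% of its FPKM to the 368 genes that copper strongly lowered in ∆ArAceA, whereas WT replicates 1 and 3 gave 4.08% and 3.92%. Some results that rest on it are also given without it, while the level classes and the comparisons with all 3 WT libraries include it.

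Fewer genes of ∆ArAceA were at 1 FPKM or more with copper than without. Without copper 8587, 8581 and 8573 genes were at 1 FPKM or more, and with copper 8495, 8453 and 8504, so that the groups did not overlap. The median gene was at 16.72, 16.70 and 16.78 FPKM without copper and at 16.03, 15.66 and 16.32 FPKM with it, again without overlap. The 100 most abundant genes of a library took 32.3%, 32.1% and 32.1% of all FPKM without copper and 34.4%, 34.7% and 34.4% with it. In each of these 3 measures the exact two-sided permutation test gave p = 0.10, the smallest that 3 against 3 libraries allow. Genes listed at 0 numbered 471.0 ± 12.5 without copper and 456 ± 5.51 with it, groups that overlapped (exact permutation p = 0.20). After upper-quartile scaling the medians no longer separated, at 15.58, 15.66 and 15.69 without copper and 15.61, 15.48 and 15.78 with it (exact permutation p = 0.90). The genes at 1 or more still did, at 8516 to 8534 without copper and 8441 to 8483 with it.

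Copper changed the level of most genes of ∆ArAceA, but few of them strongly. Of the 8741 genes tested, 4915 were called (56.2%), 2159 higher (24.7%) and 2756 lower (31.5%) with copper. The typical change was small, with a median size of 0.25 on the log2 scale over all genes tested, against 0.12 for copper in WT. All 3 copper libraries lay above all 3 without copper in 28.9% of genes and below them in 36.1%. At 2-fold or more, 167 genes rose (1.91% of those tested) and 368 fell (4.21%). The balance changed with the size of the response: the 4-fold threshold was passed by 42 rises and 56 falls, the 8-fold threshold by 12 and 10, and the 16-fold threshold by 3 and 3. In WT, 105 genes rose and 16 fell 2-fold or more.

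**Figure D1:**
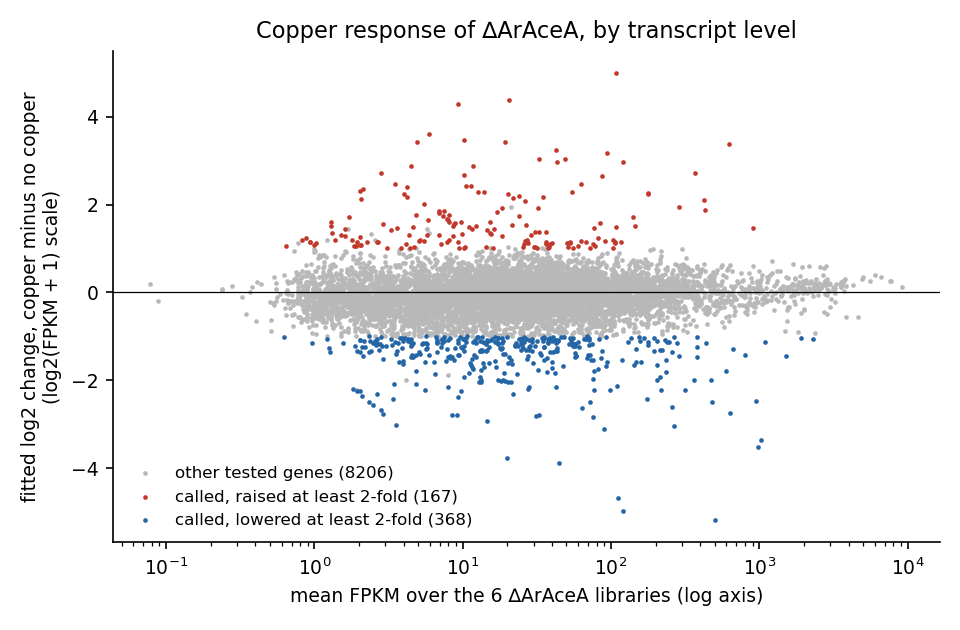
Each point is a tested gene, with its mean FPKM over the 6 ∆ArAceA libraries on a log x axis and its fitted log2 change with copper on the y axis. The 167 strong rises are red and the 368 strong falls blue, and both run over nearly the whole range of levels, with the rises thinning out among the most abundant genes.

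The majority of falls among all calls depended on how libraries were scaled, whereas the strong changes did not. With columns scaled by their upper quartile, 2677 genes were called higher and 2350 lower (53.3% higher, against 43.9% in the FPKM as deposited), and by the median of ratios 2440 and 2556. The median gene shifted by -0.04 in the FPKM as deposited and by 0.02 after upper-quartile scaling. Strong falls outnumbered strong rises on both scalings, with 317 against 176 and 341 against 175.

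The strongest rises came from genes at a low level without copper. M433DRAFT_154429 stood at 5.53, 5.40 and 5.85 FPKM in the 3 ∆ArAceA libraries without copper and at 211, 202 and 214 FPKM in those with copper. The libraries of each group lay close together and the groups far apart, with a ratio of means of 37.4 and a fitted log2 change of 4.99 (SE 0.08, limma adjusted p = 9.41e-14). M433DRAFT_146212 stood at 0.93, 0.90 and 1.11 FPKM without copper and at 40.3, 37.3 and 42.8 FPKM with it, a 40.9-fold ratio of means. Its fitted change was 4.38 (SE 0.09, limma adjusted p = 1.56e-12), lower than its ratio of means because 1 is added to each FPKM before the logarithm.

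The next 4 rises all began at 1.04 FPKM or less. Those of rank 3, 4 and 6 were listed at 0 in every library without copper, so that no fold is given for them. With copper the rank 3 gene was at 18.99, 19.34 and 16.97 FPKM, and it was also listed at 0 in all WT libraries without copper but at 4.60, 5.95 and 6.08 FPKM in WT with copper. The rank 4 gene reached 7.40, 16.45 and 11.50 FPKM, with its copper libraries more than 2-fold apart. In WT that gene went the other way, from 10.25, 12.64 and 8.15 FPKM without copper to 0.57, 1.01 and 0 FPKM with it. The remaining 5 of the 6 largest rises were all called higher with copper in WT too.

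The largest falls included genes among the abundant transcripts of the mycelium. M433DRAFT_6878 stood at 937, 1015 and 840 FPKM without copper and at 5.09, 209 and 12 FPKM with it. Its groups did not overlap, which the ranking required, but copper replicate 2 was far above the other copper libraries. The spread over its copper libraries was the widest, on the log2 scale, of any strongly changed gene. The fitted log2 change was -5.19 with an SE of 1.11 (limma adjusted p = 0.00389). It was -6.71 without copper replicate 2, -4.15 without copper replicate 1 and -4.70 without copper replicate 3. In WT this gene started higher, at 2499, 1480 and 2728 FPKM. With copper it was at 1007, 1434 and 976 FPKM there, lower without overlap but not called (limma adjusted p = 0.60). M433DRAFT_387617 stood at 193, 222 and 290 FPKM without copper and at 9.91, 6.72 and 3.83 FPKM with it, a 34.5-fold lower mean. Its groups lay far apart, with a fitted log2 change of -4.97 (SE 0.44, limma adjusted p = 1.31e-05).

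The falls of rank 3 to 6 differed in where they started. The rank 3 gene went from 212, 225 and 206 FPKM to 9.21, 6.75 and 6.55 FPKM, while both WT groups lay between 3.65 and 8.62 FPKM. The rank 5 gene went from 31.6, 34.3 and 45.9 FPKM to 4.49, 0 and 2.79 FPKM and was at 0.22 FPKM or less in every WT library. Both were far above WT without copper and closer to it with copper. The rank 6 gene started at 1737, 1978 and 1671 FPKM, above the highest WT value of 1300 FPKM, and ended at 180, 179 and 117 FPKM. It fell in WT as well, to 314, 434 and 261 FPKM, with WT replicate 2 at 501 FPKM before copper.

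**Figure D2:**
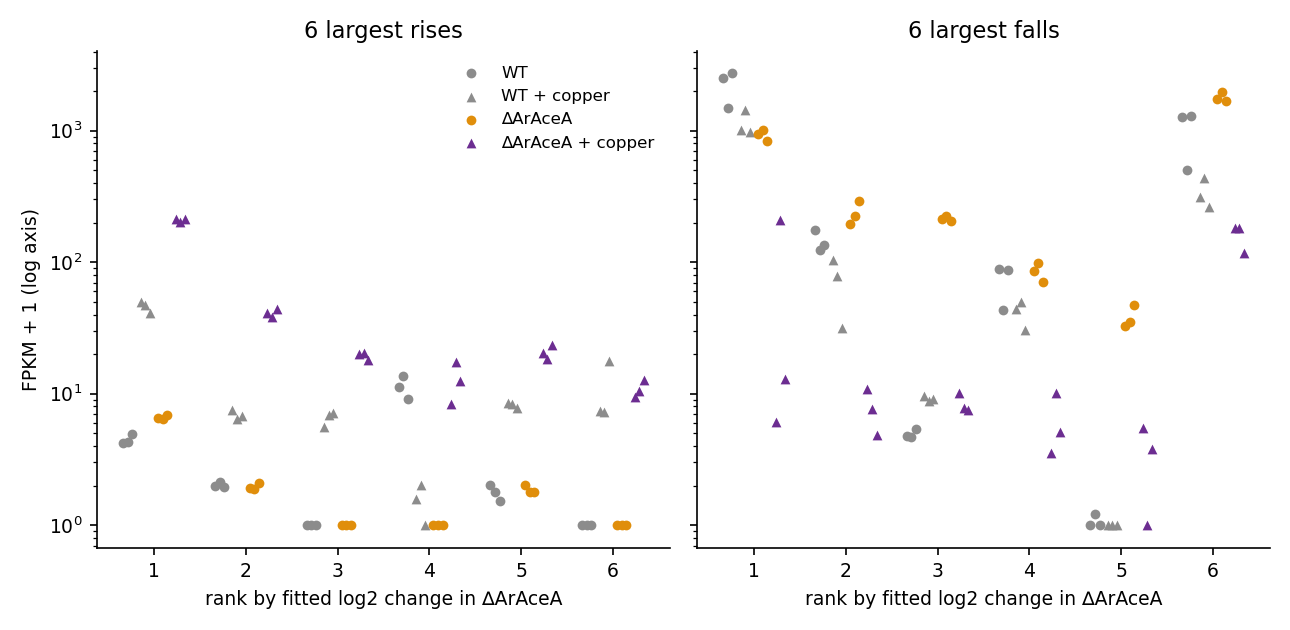
FPKM + 1 of each library on a log y axis for the 6 largest rises (left) and 6 largest falls (right) of ∆ArAceA, ranked by fitted change, with circles for libraries without copper and triangles for those with copper (WT grey, ∆ArAceA orange and purple). In every gene all 3 purple triangles lie apart from all 3 orange circles, which was a condition of the ranking. The rank 1 fall has its copper libraries spread from 5.09 to 209 FPKM.

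Abundant transcripts were more often strongly lowered than strongly raised. Genes were placed in classes by their level in WT without copper. The fitted changes in ∆ArAceA do not use those libraries, but the calls do, through the shared estimate of a gene's spread. Of the 308 genes at 500 FPKM or more, 14 fell (4.55%) and 1 rose (0.32%) strongly in ∆ArAceA, and of the 1003 genes from 100 to 500 FPKM, 38 fell (3.79%) and 4 rose (0.40%). Of the 2046 genes under 5 FPKM, 129 fell (6.31%) and 79 rose (3.86%). Strong rises thus made up a smaller share of each higher class, from 3.86% in the lowest through 1.78% and 1.35% to 0.40% and 0.32%. The falls followed no such order, at 6.31%, 4.35%, 2.76%, 3.79% and 4.55%. With a pseudocount of 0.1 the lowest class held 239 falls and 112 rises, so the counts among genes of low level depend on that setting.

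**Figure D3:**
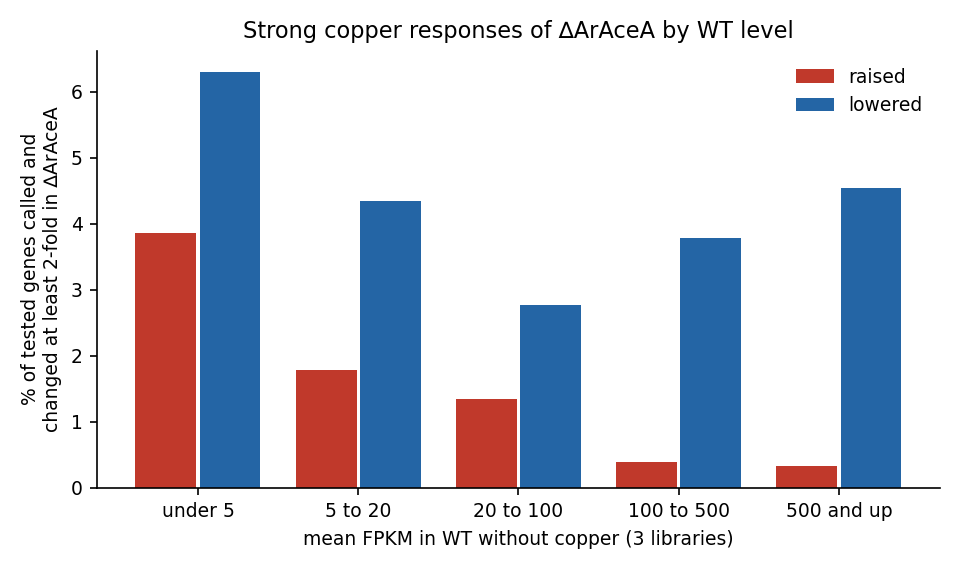
Bars give the percentage of tested genes that copper raised (red) or lowered (blue) by at least 2-fold with a call in ∆ArAceA, in 5 classes of mean FPKM in WT without copper. The red bars drop from 3.86% to 0.32%, while the blue bars lie between 2.76% and 6.31%.

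Calls of any size, strong ones included, were balanced differently in the lowest and the highest class. Among genes under 5 FPKM in WT, 250 were called higher and 665 lower, and their median change was -0.17 on the log2 scale. Among genes of 500 FPKM or more, 118 were called higher and 92 lower, and their median change was 0.05. After upper-quartile scaling these medians were -0.12 and 0.11, so their order was kept while every class moved up.

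The strong changes of highest level differed in size and in their WT counterpart. The highest level among strong rises was reached by a gene at 466, 477 and 511 FPKM without copper and at 1340, 1363 and 1309 FPKM with it, a 2.76-fold ratio of means. In WT it lay higher, at 1251 to 1639 FPKM without and 2252 to 2404 FPKM with copper. The second went from 98.7, 113 and 113 FPKM to 1241, 1027 and 1168 FPKM, a 10.6-fold ratio, and from between 30.4 and 34.3 FPKM to between 175 and 239 FPKM in WT. The 2 that followed rose 4.29-fold and 3.67-fold. All 4 were called higher with copper in WT, and in 3 of them the rise was called larger in ∆ArAceA, by 0.71 to 0.79 on the log2 scale. In the gene that rose 3.67-fold the difference from WT was 0.25 and was not called (limma adjusted p = 0.31).

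The 4 strong falls of highest level started between 1571 and 3186 FPKM. The first of them went from 3180, 2998 and 3186 FPKM to 1488, 1492 and 1481 FPKM, a 2.1-fold lower mean with close replicates in both groups. The fourth went from 1571, 1827 and 2170 FPKM to 224, 214 and 115 FPKM, a 10.1-fold lower mean. In WT that gene lay between 587 and 857 FPKM without copper and between 391 and 764 FPKM with it, and was not called (limma adjusted p = 0.62). The difference of response was called in all 4 genes.

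The strong rises and falls moved a limited part of the FPKM of a library. The 167 raised genes together held 0.362%, 0.375% and 0.376% of all FPKM in ∆ArAceA without copper and 1.35%, 1.29% and 1.35% with it. The 368 lowered genes held 5.04%, 5.32% and 5.03% without copper and 1.76%, 1.77% and 1.59% with it. These genes were chosen for their change, so the sums describe its size and are no test. In WT the same raised genes went from between 0.456% and 0.547% to between 0.911% and 0.951%, and the lowered genes from between 2.69% and 4.08% to between 2.36% and 2.94%, where the groups overlap through WT replicate 2.

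**Figure D4:**
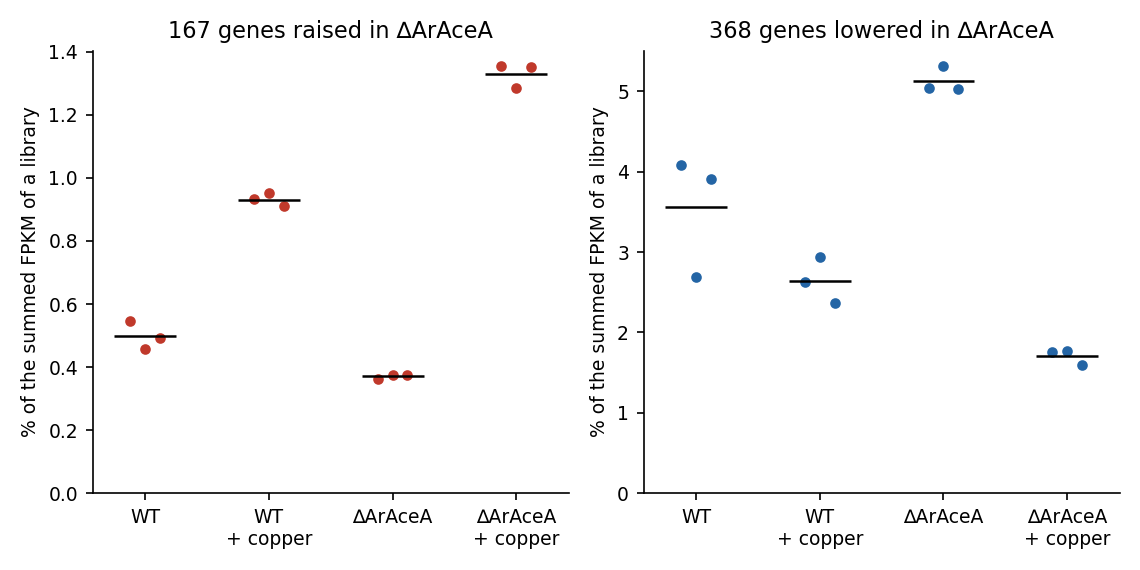
Each point is a library and each horizontal line the mean of 3, giving the percentage of the summed FPKM held by the 167 genes strongly raised (left) and the 368 strongly lowered (right) in ∆ArAceA. The raised genes reach 1.29% to 1.35% in ∆ArAceA with copper, above WT with copper, and the lowered genes start above all WT libraries and end below them.

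Over all genes, 10.2% to 10.9% of the FPKM of a library had to be moved between genes to turn a ∆ArAceA library without copper into one with copper, over the 9 pairs of libraries. Between replicates this share was 2.43% to 3.29% without copper and 2.05% to 2.61% with it. For copper in WT it was 5.44% to 6.53%, with 3.73% to 4.88% and 2.47% to 3.03% between replicates. The gains and the losses had different makeup. Of the mean gain in ∆ArAceA, 50% fell to 94 genes, of which 9 rose by at least 2-fold, and the median of the 94 was 2350 FPKM with copper. Of the mean loss, 50% fell to 116 genes, of which 48 fell by at least 2-fold, and their median was 799 FPKM without copper. Among the genes holding these shares, most gains were thus changes of under 2-fold in very abundant genes. Strong changes were more frequent on the side of the losses, as they were over all genes tested, with 1.91% raised and 4.21% lowered. The genes were picked by their gain or loss between the same libraries, so these counts are descriptive.

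Genes that copper raised strongly in ∆ArAceA were mostly raised in WT as well, and more so the larger the rise. WT and ∆ArAceA share no library in these comparisons, although a gene's spread is estimated once for both in the single fit. Over all genes tested, 10.6% were called higher and 10.7% lower with copper in WT. Of the 125 genes raised 2- to 4-fold in ∆ArAceA, 73 were called higher in WT (58.4%), of the 30 raised 4- to 8-fold 23 (76.7%), and of the 12 raised at least 8-fold 11 (91.7%). The exception among the 12 is the rank 4 gene described above. The median log2 change of the 12 was 3.42 in ∆ArAceA and 2.19 in WT.

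Most strong falls were not called in WT. Of the 368 genes, 70 were called lower (19.02%) and 38 higher (10.3%) with copper in WT, and the other 260 were not called, beside the 10.7% lower and 10.6% higher of all genes tested. By size, the share called lower in WT was 18.6% of the 312 genes that fell 2- to 4-fold, 21.7% of the 46 that fell 4- to 8-fold, and it was 2 of the 10 that fell at least 8-fold. The median change of the 368 genes was -1.28 in ∆ArAceA and -0.07 in WT. Without WT replicate 2, 85 of them were called lower (23.1%, against 8.31% of all genes tested), 31 higher and 252 not called in WT, and 16 in place of 11 fell there by at least 2-fold.

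**Figure D5:**
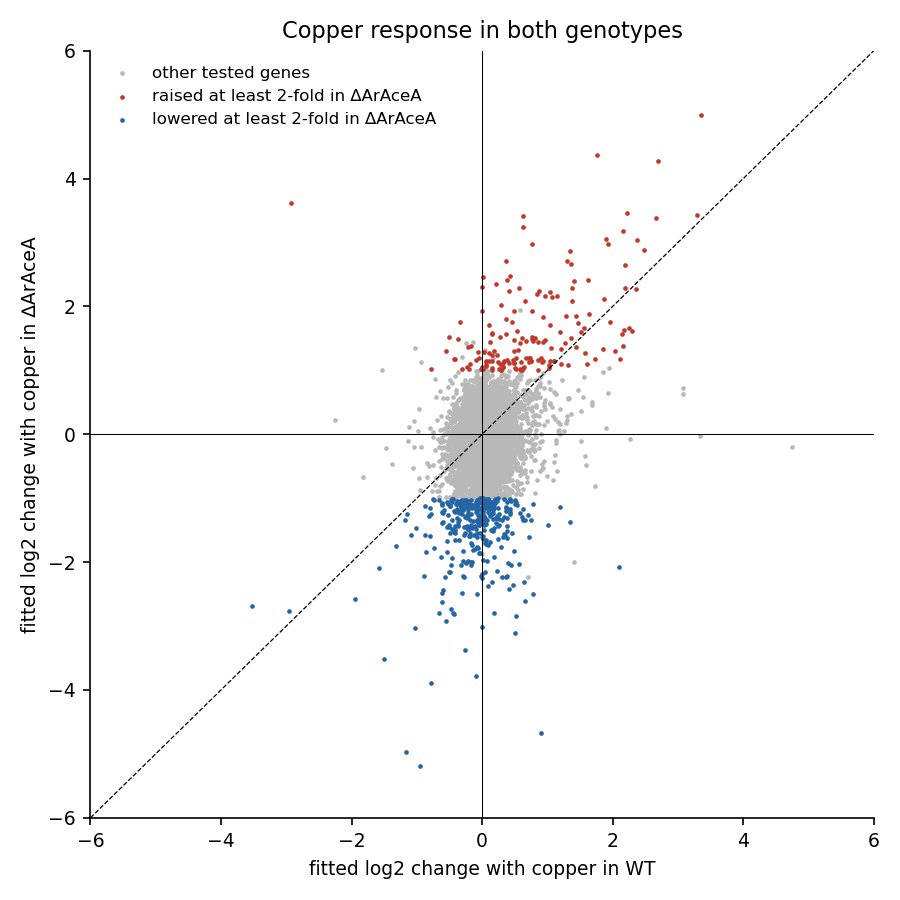
Each point is a tested gene, with its fitted log2 change with copper in WT on the x axis and in ∆ArAceA on the y axis, both on the log2(FPKM + 1) scale. The dashed line marks equal changes. Red points (strong rises in ∆ArAceA) lean to the right, with 107 of 167 called higher in WT, while blue points (strong falls) spread to both sides of 0, around a median of -0.07 in WT.

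The difference between the genotypes was itself tested. Over all genes, the copper response was called more positive in ∆ArAceA in 20.2% and more negative in 25.6%. Among the 167 raised genes it was called more positive in 114 and more negative in 8, and among the 368 lowered genes more negative in 341 and more positive in 1. Choosing genes by their change in ∆ArAceA favours these directions, so the counts are no separate support. Without WT replicate 2 they were 111 and 7 for the raised genes and 339 and 1 for the lowered genes. M433DRAFT_154429 and M433DRAFT_146212 rose more in ∆ArAceA than in WT, and M433DRAFT_387617 fell more. For M433DRAFT_6878 the difference was -4.24 and was not called (limma adjusted p = 0.0559). Without copper replicate 2 it was -5.76 and was called (limma adjusted p = 6.92e-05), as it was without trend and robust moderation (0.0279). Over the other alternatives, apart from the minimum change of 2-fold, the limma adjusted p ran from 0.0548 to 0.117.

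Sorted by their call in WT, the strong rises formed 3 groups. The 107 genes also raised in WT had medians of 7.44 FPKM without and 35.8 FPKM with copper in ∆ArAceA, and of 6.34 and 14.7 FPKM in WT. The 57 genes not called in WT were of lower level, with medians of 2.76 and 10.1 FPKM in ∆ArAceA and of 4.90 and 5.52 FPKM in WT. In 23 of the 57 (40.4%) all 3 ∆ArAceA libraries without copper lay below all 3 of WT, against 19.3% of all genes tested. The choice of the 57 genes uses the same ∆ArAceA libraries and favours low starts. The remaining 3 genes were called lower in WT. One of them went from 32.8, 34.0 and 32.8 FPKM to 75.6, 65.9 and 64.9 FPKM in ∆ArAceA, and from between 66.8 and 82.7 FPKM to between 41.5 and 46.1 FPKM in WT.

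The strong falls started high in every such group. Of the 368 genes, 309 (84.0%) had all 3 ∆ArAceA libraries without copper above all 3 of WT, against 42.8% of all genes tested. The ∆ArAceA libraries without copper enter both this count and the choice of the genes, so part of it follows from the choice. With copper, 119 (32.3%) had all 3 ∆ArAceA libraries above all 3 of WT, against 43.1% of all genes tested. All 3 lay below all 3 of WT in 122 (33.2%), against 15.2%. The choice of the genes also uses the ∆ArAceA libraries with copper and favours low values there. The 70 genes also lowered in WT went from a median of 59.5 to 23.5 FPKM in ∆ArAceA and from 28.1 to 20.1 FPKM in WT. The 260 genes not called in WT went from 21.7 to 7.20 FPKM, beside WT medians of 7.71 and 7.21 FPKM.

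In 38 genes, 10.3% of the strong falls and thus close to the 10.6% of all genes called higher in WT, the genotypes moved in opposite directions. These fell in ∆ArAceA from a median of 37.6 to 14.0 FPKM and rose in WT from 9.65 to 15.8 FPKM. In all 38 the ∆ArAceA libraries without copper lay above those of WT, against 42.8% of all genes tested. Choosing a fall in ∆ArAceA and a rise in WT favours high starts in ∆ArAceA and low starts in WT, so this count is no separate support. With copper the ∆ArAceA libraries lay above all of WT in 10 of the 38 (26.3%), against 43.1% of all genes tested. They lay below all of WT in 11 (28.9%), against 15.2%, and the groups overlapped in the rest. One of the pair with the largest opposite changes went from 53.6, 53.8 and 60.5 FPKM to 24.8, 19.6 and 19.3 FPKM in ∆ArAceA. In WT it went from 6.82, 6.08 and 8.09 FPKM to 22.8, 20.4 and 15.3 FPKM, so that the groups with copper overlapped. Without WT replicate 2, 31 of the 368 lowered genes were called higher in WT.

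Genes chosen by their change in WT were set beside their change in ∆ArAceA, a choice that favours larger changes in WT. Of all genes tested, 24.7% were called higher and 31.5% lower with copper in ∆ArAceA, and 1.91% and 4.21% by at least 2-fold. The difference was called more positive in ∆ArAceA in 20.2% of all genes tested and more negative in 25.6%. Copper raised 105 genes by at least 2-fold in WT, and in ∆ArAceA 78 of the 105 were called higher, 55 of them by at least 2-fold, 10 were called lower and 17 were not called. Their median log2 change was 1.40 in WT and 1.09 in ∆ArAceA, and the test of the difference called 54 more negative and 20 more positive in ∆ArAceA. Copper lowered 16 genes by at least 2-fold in WT, and in ∆ArAceA 12 of the 16 were called lower, 11 of them by at least 2-fold, 1 was called higher and 3 were not called. Their median log2 change was -1.25 in WT and -1.52 in ∆ArAceA. The test of the difference called 5 more negative and 6 more positive in ∆ArAceA and left 5 uncalled. Without WT replicate 2 the genes lowered at least 2-fold in WT numbered 23 and those raised numbered 99.

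Few genes were switched fully on or off. In ∆ArAceA 6 genes were listed at 0 in all 3 libraries without copper and at 1 FPKM or more in all 3 with it, and they reached between 2.76 and 19.3 FPKM. Of these, 4 were at 0 in all WT libraries without copper too, and 3 were at 1 FPKM or more in every WT library with copper. In the other direction 10 genes went from between 2.17 and 8.22 FPKM to 0 in all 3 copper libraries, and 9 of the 10 were called. Of the 10, 3 were switched off by copper in WT as well, 3 were at 0 in all 6 WT libraries and 3 stayed at 1 FPKM or more in every WT library with copper. In WT the same criteria were met by 5 genes switched on and 3 switched off. A listing at 0 does not show absence, since the depth is unknown. With a threshold of 1 FPKM in place of 0, 46 genes passed from below it in all libraries to at or above it in all, and 80 passed the other way.

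Replicates were close for most strongly changed genes. The median SD over the 3 copper libraries was 0.12 on the log2 scale for raised and for lowered genes, beside 0.14 and 0.11 without copper. The groups overlapped in 2 of the 167 raised genes and in 1 of the 368 lowered genes, while over all genes tested they were separate in 5678 of 8741. Choosing genes by a call and a 2-fold change favours close replicates and separate groups, so these values are descriptive. Copper libraries were more than 2-fold apart, or at 0 in part, in 6 raised and 23 lowered genes. Copper replicate 2 held the lowest copper value in 105 of the raised genes (62.9%), and its part in the response was not tested beyond leaving it out, which left 167 strong rises and 358 strong falls.

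Some of the most abundant transcripts showed no called change. The 3 highest such genes were at 6773 to 7271 FPKM without and 8104 to 8947 FPKM with copper, at 3598 to 3787 and 3694 to 3812 FPKM, and at 3359 to 3457 and 3579 to 3801 FPKM. Their log2 changes had 95% intervals of -0.14 to 0.64, -0.07 to 0.13 and -0.01 to 0.24. The first and the third had all copper libraries above those without copper, so a missing call does not show that they stayed level (limma adjusted p = 0.24 and 0.10).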

How the data were processed

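RNA-seq libraries of mycelia from 4 groups of 3 cultures were used, grouped by the sample titles. Per the labels' protocols, RNA was isolated with TRIzol and libraries followed Illumina protocols. For strand, read length, sequencing batch, genome build and annotation, the sources used here give nothing. The submitters' processing notes name DESeq2 (no version), RSEM 1.2.8 and HISAT2 2.1.0 without saying what each was used for. The authors deposited FPKM per gene, already scaled by length and library size, and the 12 per-library tables equal the series table. All columns of per-library values were mapped (0 left over). Changes were computed from FPKM only; the deposited ratios and Q values were not used.

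The test was limma 3.58.1 in R 4.3.3, two-sided, fitted to log2(FPKM + 1) with a mean-variance trend and robust variances, for genes of at least 1 FPKM in at least 3 libraries. One fit over 12 libraries and 4 groups gave each comparison, with Benjamini-Hochberg adjustment over 8741 genes and a threshold of 0.05. The number of reads is unknown, so no counting interval is given. The procedure was checked on simulated data. Alternatives covered the pseudocount, filter, scaling, libraries fitted, replicate block, moderation, minimum change and libraries left out. Library summaries were compared by exact permutation in SciPy 1.17.1. The share of FPKM moved between 2 libraries is the sum of the positive differences of their genes' percentages.

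The groups, sizes and rules were chosen with earlier results of these data known. Among genes ranked as the text states, the rule for named genes took the 6 largest and 4 most abundant changes each way. It also took 2 each way that were called for the difference but not for copper in WT. A further 2 each way were opposite and 2 each way shared between genotypes. The remaining entries were the 2 most variable, 3 each way switched from or to 0, and the 3 most abundant uncalled. Since the identifiers carry no names, only the first 2 each way are printed. Planned lists by product name were not run for the same reason. Same-numbered libraries of the 2 ∆ArAceA groups deviated together only weakly (r = 0.03, 0.04 and 0.03 across genes). Different-numbered libraries gave r from -0.036 to 0.006, below all 3 same-numbered values. All of these values are small, so the numbers were not taken as pairs.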

Additional observations from a re-analysis of the deposited data

Results flagged for a closer look

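The copper response differed between ∆ArAceA and WT by the test of the difference itself in 4006 of 8741 genes (limma, adjusted p under 0.05). M433DRAFT_154429 rose more in ∆ArAceA, by 1.63 on the log2 scale (limma adjusted p = 2.61e-07), and all 3 copper libraries exceeded all 3 without copper in both genotypes. M433DRAFT_146212 rose more in ∆ArAceA by 2.61 (1.64e-08), with all 3 copper libraries higher in both genotypes. For M433DRAFT_387617 the difference was -3.80 (limma adjusted p = 0.00114), with all 3 copper libraries lower in both genotypes. Its fall in WT, from 173, 123 and 135 FPKM to 102, 77.9 and 30.6 FPKM, was not called (limma adjusted p = 0.096). These genes were ranked by their change in ∆ArAceA, which favours a difference of the same sign. Separate libraries in ∆ArAceA were a condition of that ranking.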

How the results depend on the processing

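The counts of called genes, of strong rises and of strong falls in ∆ArAceA stayed within 1.5 times their value under a pseudocount of 0.1, either other filter, both scalings, a separate fit of each comparison's own libraries, the replicate block and plain moderation. Against a minimum change of 2-fold, 188 genes of ∆ArAceA passed, 66 higher and 122 lower, in place of 4915. Leaving out each ∆ArAceA library in turn gave 4425 to 4511 calls, 159 to 167 strong rises, 358 to 386 strong falls and 3604 to 3744 called differences between genotypes. With a pseudocount of 0.1 there were 205 strong rises and 505 strong falls, of which 164 and 365 are among the 167 and 368. The samples share only a replicate number. With that number as a block, 4733 genes were called in place of 4915. For copper in WT it was 1621 in place of 1867, and for the difference 3791 in place of 4006. A fit of the WT libraries alone called 1255 genes for copper in WT, 678 higher and 577 lower. The number of genes called in WT thus depends on which libraries are fitted together. In a fit on the ∆ArAceA libraries alone the block, added after seeing the data, gave 4969 calls. M433DRAFT_6878 (-5.19) was no longer called there, at a limma adjusted p of 0.089 against 0.0442 without the block. Over the other alternatives its limma adjusted p ran up to 0.0166, apart from the minimum change of 2-fold, for which none is given. The test against that minimum kept 2 of the 3 falls of at least 16-fold. Of the 3, M433DRAFT_6878 had the largest SE and is the likely loss. Leaving out single ∆ArAceA libraries moved M433DRAFT_6878 between -6.71 and -4.15. Without WT replicate 2, an alternative also chosen after seeing the data, 1643 genes were called for copper in WT and 3844 for the difference. The 2 scalings, also tried on the library summaries after seeing the data, moved the difference in median FPKM from -0.73 to -0.36 (median of ratios) and -0.02 (upper quartile), and the difference in genes at 1 FPKM or more from -96.3 to -75.7 and -59.3. Unknown depth limits what a listing at 0 can show.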
